A study of Homo sapiens with 6 samples.

Results

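The genes described here are ATF4, its partner transcription factors and a list of its known target genes, which together form the amino-acid arm of the integrated stress response. They were chosen by name, with earlier results of these data known. The table of read counts was searched for the Ensembl identifiers of 35 listed symbols, and all 35 were found among its 61661 identifiers. The measurements are RNA-seq read counts from K562, a human cell line derived from chronic myeloid leukaemia in blast crisis. There were 2 libraries of each of 3 lentivirally made lines, grown in RPMI1640 medium with serum: shCTR, labelled wild type and carrying a nonsense hairpin, shMETTL3, labelled as METTL3 knockdown, and shMETTL14, labelled as METTL14 knockdown. The study selected its lines with puromycin, which the vector makes the cells resist, but its methods do not say whether a line was a clone or a pool, and the METTL14 hairpin is not described there. METTL3 and METTL14 form the enzyme complex that writes N6-methyladenosine (m6A) into mRNA. The comparisons ask how the mRNA levels of these genes differ between lines labelled as knockdowns of either subunit and the control line. Each group has its own hairpin and line. Off-target effects of a hairpin and differences between lines therefore cannot be told apart from depletion of the subunit. No m6A, protein or translation was measured in these libraries.

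When amino acids run short, haem is lacking or unfolded proteins build up, kinases such as GCN2, HRI and PERK phosphorylate the initiation factor eIF2. General translation then falls, while translation of the ATF4 mRNA rises because of short upstream open reading frames. ATF4 protein dimerises with C/EBP family members and binds a C/EBP-ATF response element near genes for amino acid synthesis, amino acid uptake and feedback control. The level of ATF4 mRNA is therefore a separate quantity from ATF4 activity.

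The response element has the core TGATGNAAN, where N is any base. RefSeq promoter windows of the GRCh38.p14 build, running from 250 bases before to 50 bases after each start site, were available for 29 of the 35 genes, and 9 of the 29 held this core on at least 1 strand of at least 1 window (31.0%). Among all genes with a window the share was 4.45%, and among those whose counts were tested it was 2.64%. By the same count it was 4 of 13 among further ATF4 targets, 7 of 16 among cytosolic aminoacyl-tRNA synthetases, 1 of 17 among eIF2 kinases and regulators, 0 of 16 among genes of the ATF6 and XBP1 branch and 0 of 8 among NRF2 targets. A match is a description of the letters only. The windows of GDF15, TRIB3, ATF5, PCK2 and SLC6A9 held no match, which says nothing of elements elsewhere. The sequences shown are those of the 6 genes with a match that passed the test in a comparison between groups on reads in every library, and of FGF21. They are written on the gene's own strand, with the core in capitals, which reads as its reverse complement where the match lies on the opposite strand.
ASNS (chr7:97872458-97872486, minus strand gene, same strand): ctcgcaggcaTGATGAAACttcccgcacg
CHAC1 (chr15:40953251-40953279, plus strand gene, opposite strand): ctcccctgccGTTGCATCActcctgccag
FGF21 (chr19:48755459-48755487, plus strand gene, opposite strand): aaacaccaggATTGCATCAgggaggagga
SLC7A1 (chr13:29595663-29595691, minus strand gene, same strand): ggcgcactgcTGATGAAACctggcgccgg
SLC1A4 (chr2:64989381-64989409, plus strand gene, opposite strand): gcggctcccgTTTGCATCAtctccagccg
CEBPG (chr19:33374061-33374089, plus strand gene, same strand): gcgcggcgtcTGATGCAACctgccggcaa
JDP2 (chr14:75427996-75428024, plus strand gene, same strand): tagccggggcTGATGCAACccgtcccgcc

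The libraries held between 19292574 and 20115304 reads each. METTL3 had 1788 and 1728 reads in shCTR, 1031 and 938 in shMETTL3, and 1731 and 1498 in shMETTL14, and it was lower in shMETTL3 than in shCTR by a log2 fold change of -0.87 (adjusted p = 3.44e-07). METTL14 had 656 and 655 reads in shCTR, 752 and 710 in shMETTL3, and 375 and 404 in shMETTL14, and it was lower in shMETTL14 by -0.76 (adjusted p = 1.40e-05). Every adjusted p is that of the quasi-likelihood test in edgeR, adjusted by the Benjamini-Hochberg method over the 17686 genes tested, and a gene is called when that value is under 0.05. Log2 fold changes are relative to the bulk of genes, because each library was scaled by trimmed mean of M-values (TMM), and CPM, the read count relative to the library size so scaled, is given as mean ± SD with n = 2. Nothing in the sources used here states that the libraries of a group came from separate cultures, so the p values measure the spread between these libraries, which may be technical. In a bulk sample, fewer cells of a type and less RNA per cell cannot be told apart. The erythroid regulator GATA1, a marker of K562, had 4942 to 6032 reads, while the T cell, B cell, monocyte and myeloid markers CD3E, MS4A1, CD14 and MPO had at most 3 reads in any library. A list of 10 erythroid and megakaryocytic markers summed to between 1087 and 1201 CPM in shCTR, 1363 and 1475 in shMETTL3, and 1300 and 1304 in shMETTL14, and one of 9 markers of other blood cells, mostly lysozyme (LYZ), to 49.2 and 51.4, 26.3 and 26.9, and 67.8 and 73.9. One of 7 epithelial, endothelial and stromal markers, with CDH5 at 0, summed to between 125 and 130, 107 and 112, and 138 and 144. These sums moved with the groups, and their part in the results was not tested.

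Against shCTR, shMETTL3 cells had higher mRNA of 12 of the 33 listed genes that could be tested and lower mRNA of 2, while 19 did not pass the test. One of the 12, FGF21, passed the filter on low counts only through shMETTL3, the group where it was high, and without it 11 of 32 were higher, with a median of 0.11. Over all genes, 8.73% were called higher and 7.73% lower, 16.5% in either direction. The median log2 fold change was 0.13 for the listed genes and 0.00299 for all genes tested. The largest difference among well counted members was in GDF15, a secreted stress cytokine, at 2.05-fold, followed by the glycine transporter SLC6A9, the mitochondrial gluconeogenic enzyme PCK2, the kinase-like feedback inhibitor TRIB3 and the transcription factor ATF5. ATF4 mRNA itself was not called.

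Against the same shCTR libraries, shMETTL14 cells had higher mRNA of 2 listed genes, GDF15 and SLC6A9, and lower mRNA of 5: MTHFD2, CBS, CTH, ASNS and DDIT4. All 5 except the stress gene DDIT4 encode enzymes of amino acid or one-carbon metabolism, and 26 listed genes did not pass the test. Over all genes, 3.43% were called higher and 3.26% lower, 6.69% in either direction. The median was -0.06 for the listed genes and -0.00014 for all genes tested.

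Tested directly against each other, the knockdown lines differed in 14 listed genes, each of them higher in shMETTL3, and 0 were lower. Over all genes, 6.65% were called higher in shMETTL3 and 5.49% lower, 12.1% in either direction. The medians were 0.18 for the listed genes and -0.00166 for all genes, and 29 of the 33 values were above 0. Without FGF21, which passed the filter only through shMETTL3, the median was 0.17 and 28 of 32 values were above 0. With the GC and length trend removed, 19 listed genes were called higher and 1 lower, PHGDH at -0.16 (adjusted p = 0.0236). Of the 33, 4 were called in both knockdowns against shCTR, 10 in shMETTL3 alone, 3 in shMETTL14 alone and 16 in neither, with FGF21 among the 10. The same shares over all genes were not counted, so these numbers are not read as a trait of the listed genes. The 2 comparisons share their controls.

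**Figure D1:**
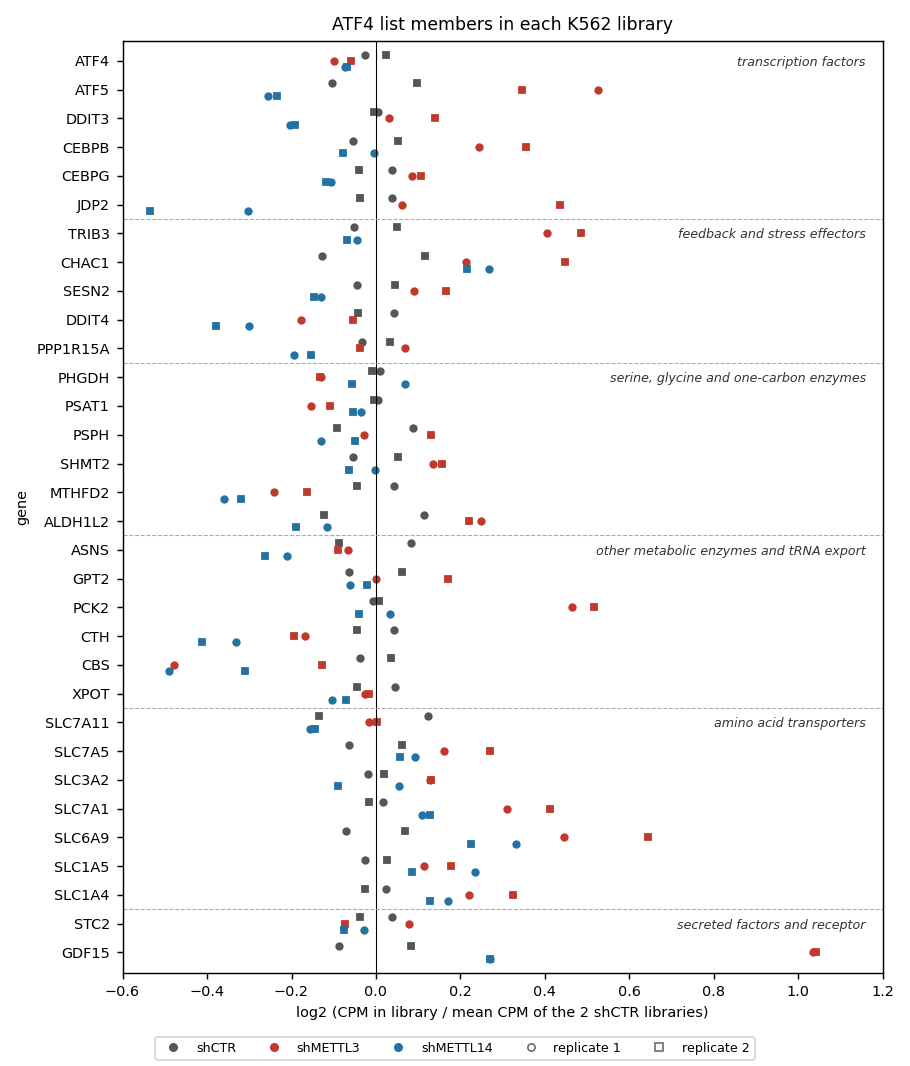
Each point is 1 library, and the horizontal axis is the log2 ratio of its TMM-scaled CPM to the mean of the 2 shCTR libraries, with genes in rows grouped by role. Circles are replicate 1 and squares replicate 2. Both shMETTL3 points for GDF15, TRIB3, PCK2, ATF5 and SLC6A9 lie to the right of both shCTR points, and those for ATF4 lie close to 0. FGF21, NUPR1 and VLDLR, with few reads, are left out.

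The summed level of all 35 genes was 8581 and 8594 CPM in shCTR, 9213 and 9472 CPM in shMETTL3, and 8356 and 8138 CPM in shMETTL14. Both shMETTL3 libraries were above and both shMETTL14 libraries below the controls, a sum in which the most abundant genes weigh most. Mean GDF15 was 323 CPM in shCTR and 664 CPM in shMETTL3, while ASNS was 933 and 884 CPM and ATF4 728 and 689 CPM. The sum is thus not a shift shared by all members. Per kilobase of the longest transcript, the mean TMM-scaled level in shCTR was highest for asparagine synthetase (ASNS), at 396 CPM per kilobase, then for ATF4 at 361, GDF15 at 269, SLC3A2 at 238 and PSAT1 at 204. On that per-length scale 11 of the 33 tested genes were at 100 or above and 6 were under 20, with JDP2 at 1.70 and FGF21 at 0.136. NUPR1, a stress-induced chromatin protein, had 5 to 8 reads and VLDLR, a lipoprotein receptor, had 0 to 5 reads in the 6 libraries, so neither was tested.

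Among the transcription factors, ATF4 (chr22:39520559-39522686) had 14145 and 14185 reads in shCTR, 13348 and 14036 in shMETTL3, and 13609 and 13617 in shMETTL14. Scaled, these were 728 ± 17.8, 689 ± 14.1 and 694 ± 1.42 CPM, so both knockdown groups lay slightly below the controls and overlapped each other. The log2 fold change was -0.08 (SE 0.0534, adjusted p = 0.341) in shMETTL3, -0.07 (SE 0.0534, adjusted p = 0.494) in shMETTL14, and -0.01 (adjusted p = 0.947) between the knockdowns. Once a trend with GC content and transcript length was removed from each library, the shMETTL3 value was -0.12 and passed the test (adjusted p = 0.0419).

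ATF5, a relative of ATF4 whose translation is controlled in the same way, had 2301 and 2562 reads in shCTR, 3537 and 3189 in shMETTL3, and 2059 and 2086 in shMETTL14. Its levels were 125 ± 12.3, 169 ± 14.9 and 106 ± 1.14 CPM, and the 3 groups did not overlap. ATF5 rose in shMETTL3 by 0.44 on the log2 scale (SE 0.0742, adjusted p = 4.28e-04) and was 0.68 higher there than in shMETTL14 (SE 0.0748, adjusted p = 3.19e-06). In shMETTL14 against shCTR the value was -0.24 (adjusted p = 0.0578), past the threshold once the GC and length trend was removed (adjusted p = 0.00538).

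CEBPB, a C/EBP dimerisation partner of ATF4, had 1592 and 1661 reads in shCTR, 1946 and 2146 in shMETTL3, and 1639 and 1553 in shMETTL14. Only the shMETTL3 libraries stood apart, by 0.30 from shCTR (SE 0.0685, adjusted p = 0.00508) and by 0.34 from shMETTL14 (SE 0.0686, adjusted p = 0.00213), with -0.04 (adjusted p = 0.796) between shMETTL14 and shCTR. CEBPG, another partner, whose promoter held the core, had 3402 and 3120 reads in shCTR, 3489 and 3619 in shMETTL3, and 3058 and 3028 in shMETTL14. It differed between the knockdowns by 0.21 (SE 0.0606, adjusted p = 0.0288), while its values against shCTR, 0.10 in shMETTL3 and -0.11 in shMETTL14, were not called. With the GC and length trend removed, the CEBPG value in shMETTL3 was 0.14 and passed the test (adjusted p = 0.0466).

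Called between the knockdowns but not against shCTR were 2 further factors. DDIT3, also called CHOP and linked to stress-induced cell death, had 33.04 and 32.80 CPM in shCTR, 33.65 and 36.28 CPM in shMETTL3, and 28.60 and 28.82 CPM in shMETTL14. Its 2 shMETTL14 libraries were the lowest of the 6. It was 0.28 higher in shMETTL3 than in shMETTL14 (SE 0.0818, adjusted p = 0.0261), with 0.09 (adjusted p = 0.51) and -0.20 (adjusted p = 0.173) against shCTR. JDP2, a repressor of the AP-1 family, had 186 and 171 reads in shCTR, 188 and 249 in shMETTL3, and 146 and 124 in shMETTL14, with its libraries of 1 group widely spread. Between the knockdowns JDP2 differed by 0.68 (SE 0.151, adjusted p = 0.00485), and against shCTR by 0.26 (adjusted p = 0.24) in shMETTL3 and -0.42 (adjusted p = 0.121) in shMETTL14. Thus 5 of the 6 tested factors, all but ATF4, were called higher in shMETTL3 than in shMETTL14, where 6.65% of all genes were. Of these 5 calls only that of ATF5 stood under all 13 alternatives run.

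Of the feedback and stress genes, TRIB3, which binds ATF4 and restrains it, had 7199 and 7485 reads in shCTR, 9829 and 10614 in shMETTL3, and 7189 and 7058 in shMETTL14. Its level was 378 ± 18.9 CPM in shCTR, 515 ± 20.2 CPM in shMETTL3 and 363 ± 4.13 CPM in shMETTL14, with both shMETTL3 libraries above the other 4. TRIB3 rose by 0.45 in shMETTL3 (SE 0.0585, adjusted p = 3.09e-05) and was 0.50 above shMETTL14 (SE 0.0585, adjusted p = 6.54e-06), while in shMETTL14 the value was -0.06 (adjusted p = 0.636). CHAC1, which degrades glutathione, had 837 and 960 reads in shCTR, 1053 and 1266 in shMETTL3, and 1094 and 1053 in shMETTL14. All 4 knockdown libraries were above both controls, and CHAC1 passed the test in shMETTL3 at 0.34 (SE 0.0877, adjusted p = 0.0122) but not in shMETTL14 at 0.24 (adjusted p = 0.112). The knockdowns differed by 0.09 in CHAC1 (adjusted p = 0.555), a difference that was not called.

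DDIT4, an inhibitor of mTORC1 signalling, had 4223 and 3856 reads in shCTR, 3606 and 4009 in shMETTL3, and 3313 and 3128 in shMETTL14. The shMETTL14 libraries were the lowest, at 164 ± 6.4 CPM against 208 ± 8.69 CPM in shCTR and 192 ± 11.5 CPM in shMETTL3. DDIT4 fell by 0.34 in shMETTL14 (SE 0.0645, adjusted p = 0.00252) and was 0.22 higher in shMETTL3 than there (SE 0.0646, adjusted p = 0.0264), with -0.11 (adjusted p = 0.24) in shMETTL3 against shCTR.

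SESN2, a leucine sensor that also restrains mTORC1, had 2532 and 2612 reads in shCTR, 2767 and 2979 in shMETTL3, and 2374 and 2341 in shMETTL14. PPP1R15A, also called GADD34, the phosphatase subunit that reverses eIF2 phosphorylation, had 4319 and 4377 reads in shCTR, 4607 and 4371 in shMETTL3, and 3841 and 3940 in shMETTL14. Both were called between the knockdowns, SESN2 at 0.27 (SE 0.0635, adjusted p = 0.00744) and PPP1R15A at 0.19 (SE 0.0614, adjusted p = 0.0485). Against shCTR, SESN2 was at 0.13 (adjusted p = 0.178) and -0.14 (adjusted p = 0.219), and PPP1R15A at 0.02 (adjusted p = 0.891) and -0.17 (adjusted p = 0.101), in shMETTL3 and shMETTL14. With the GC and length trend removed, both were called lower in shMETTL14, SESN2 at -0.19 (adjusted p = 0.0197) and PPP1R15A at -0.22 (adjusted p = 0.0109).

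**Figure D2:**
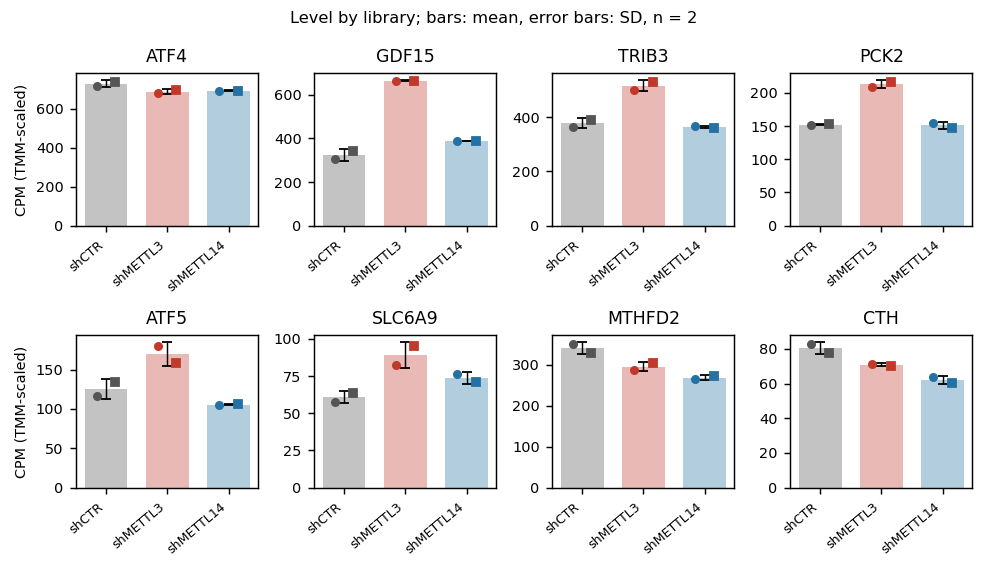
Bars are the mean TMM-scaled CPM of each group, error bars the SD (n = 2), and points the libraries (circle, replicate 1, and square, replicate 2). GDF15, TRIB3, PCK2, ATF5 and SLC6A9 were highest in shMETTL3, MTHFD2 and CTH were lowest in shMETTL14, and the ATF4 bars lie between 689 and 728 CPM.

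Of the 6 genes of serine, glycine and one-carbon metabolism, 3 had values above 0 in shMETTL3 and 3 below. In that group 1 was called higher, 1 lower and 4 not, where 8.73% of all genes were called higher and 7.73% lower. Neither call stood under all 13 alternatives run. PHGDH, the first enzyme of serine synthesis, had 10256 and 9821 reads in shCTR, 9264 and 9442 in shMETTL3, and 10636 and 9723 in shMETTL14, with log2 fold changes of -0.13 (adjusted p = 0.128) and 0.01 (adjusted p = 0.961). PSAT1, which acts next, had 8876 and 8532 reads in shCTR, 7897 and 8320 in shMETTL3, and 8577 and 8444 in shMETTL14, at -0.13 (adjusted p = 0.11) and -0.05 (adjusted p = 0.70). The shMETTL3 libraries were thus the lowest for both genes, without a call.

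PSPH, the last enzyme of the route, had between 1016 and 1244 reads in every library and values of 0.05 and -0.09 that were not called. Its pseudogene PSPHP1 had 119 to 157 reads, so reads may be split between them and the PSPH counts are uncertain. SHMT2, which turns serine into glycine in mitochondria, had 8138 and 8485 reads in shCTR, 9221 and 9559 in shMETTL3, and 8389 and 8023 in shMETTL14. Both shMETTL3 libraries were the highest for SHMT2, at 0.15 (adjusted p = 0.0928) against shCTR and 0.18 (adjusted p = 0.0502) against shMETTL14. The latter passed the threshold in DESeq2 (adjusted p = 0.0429), with library size alone (adjusted p = 0.0215), with only the compared groups (adjusted p = 0.0113), with the GC and length trend removed (adjusted p = 0.0443) and with the replicate number as a block (adjusted p = 0.0253), and the former with library size alone (adjusted p = 0.0211).

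MTHFD2, the mitochondrial one-carbon enzyme downstream of SHMT2, had 6913 and 6307 reads in shCTR, 5642 and 6087 in shMETTL3, and 5200 and 5337 in shMETTL14. The levels were 340 ± 14.4, 295 ± 11.4 and 268 ± 5.37 CPM, and both knockdown groups lay below both controls. MTHFD2 fell by 0.34 in shMETTL14 (SE 0.0594, adjusted p = 0.00116) and by 0.20 in shMETTL3 (SE 0.0593, adjusted p = 0.0238). The shMETTL3 call was lost when libraries were scaled by their size alone, at -0.15 (adjusted p = 0.0985), whereas the shMETTL14 call stood under every one of the 13 alternatives run. ALDH1L2, which oxidises formyl-tetrahydrofolate in mitochondria, had 3102 and 2553 reads in shCTR, 3385 and 3393 in shMETTL3, and 2632 and 2495 in shMETTL14. It was called at 0.23 in shMETTL3 (SE 0.0715, adjusted p = 0.0297) and 0.39 between the knockdowns (SE 0.0718, adjusted p = 0.00104), with -0.15 (adjusted p = 0.234) in shMETTL14. The ALDH1L2 value in shMETTL3 was 0.12 without shCTR replicate 2 and 0.35 without shCTR replicate 1.

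Among the other metabolic genes, PCK2 had 2986 and 2918 reads in shCTR, 4113 and 4354 in shMETTL3, and 3050 and 2894 in shMETTL14. Its level was 152 ± 0.928 CPM in shCTR and 151 ± 5.37 CPM in shMETTL14 against 213 ± 5.38 CPM in shMETTL3, where both libraries stood well above the other 4. PCK2 rose by 0.49 in shMETTL3 (SE 0.0606, adjusted p = 1.57e-05) and was 0.49 higher there than in shMETTL14 (SE 0.0606, adjusted p = 1.25e-05).

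ASNS, which makes asparagine and is the reference target of the response element, had 19515 and 16820 reads in shCTR, 17512 and 17599 in shMETTL3, and 15844 and 15235 in shMETTL14. The controls were far apart, at 933 ± 77.1 CPM, yet both shMETTL14 libraries were below them, at 792 ± 20.7 CPM. ASNS fell by 0.24 in shMETTL14 (SE 0.0591, adjusted p = 0.0187), with -0.08 (adjusted p = 0.407) in shMETTL3.

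CTH and CBS make cysteine from methionine by transsulfuration. CTH had 1634 and 1491 reads in shCTR, 1404 and 1409 in shMETTL3, and 1254 and 1183 in shMETTL14, so the 3 groups were ordered without overlap. CTH fell by 0.37 in shMETTL14 (SE 0.0678, adjusted p = 0.00176), while the shMETTL3 value of -0.18 was not called (adjusted p = 0.0724). CBS had 3211 and 3275 reads in shCTR, 2352 and 3063 in shMETTL3, and 2335 and 2637 in shMETTL14, with the shMETTL3 libraries far apart at 136 ± 23.3 CPM. It was called lower in both knockdowns, by -0.29 in shMETTL3 (SE 0.0874, adjusted p = 0.0263) and -0.40 in shMETTL14 (SE 0.0877, adjusted p = 0.00839), but DESeq2 called neither (adjusted p = 0.246 and 0.138), and scaling by library size alone lost the shMETTL3 call at -0.24 (adjusted p = 0.0704). The size of the shMETTL3 difference rested on 1 library, at -0.13 without shMETTL3 replicate 1 and -0.48 without shMETTL3 replicate 2. CBS counts are uncertain, because the annotated near-identical copy CBSL took 2.88% to 10.4% of the reads of the pair, most in shMETTL14 replicate 2.

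GPT2, mitochondrial alanine aminotransferase, and XPOT, which exports tRNA from the nucleus, were called in no comparison. GPT2 had between 2108 and 2525 reads in the 6 libraries and XPOT between 8207 and 9155.

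Of the 7 amino acid transporters, 4 rose in shMETTL3 and 0 fell, and the median was 0.22, where 8.73% of all genes were called higher. The calls of SLC7A5 and SLC1A4 were lost without shMETTL3 replicate 2. SLC6A9, the glycine transporter GLYT1, had 1145 and 1222 reads in shCTR, 1627 and 1909 in shMETTL3, and 1505 and 1394 in shMETTL14. Its levels of 60.9 ± 4.16, 89.0 ± 8.71 and 73.9 ± 3.88 CPM did not overlap between any of the groups. SLC6A9 rose by 0.55 in shMETTL3 (SE 0.0777, adjusted p = 7.35e-05) and by 0.28 in shMETTL14 (SE 0.0785, adjusted p = 0.0367), and the knockdowns differed by 0.27 (SE 0.0766, adjusted p = 0.0246), or by 0.17 without shMETTL3 replicate 2. The shMETTL14 call was lost in DESeq2 (adjusted p = 0.0588) and without the filter on low counts (adjusted p = 0.094).

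SLC7A1, the cationic amino acid transporter CAT1, had 3315 and 3137 reads in shCTR, 4038 and 4423 in shMETTL3, and 3516 and 3550 in shMETTL14. Both shMETTL3 libraries were the highest, and SLC7A1 rose there by 0.36 (SE 0.061, adjusted p = 4.14e-04) and was 0.24 above shMETTL14 (SE 0.0608, adjusted p = 0.0109), with 0.12 (adjusted p = 0.284) in shMETTL14. SLC1A4, a transporter of neutral amino acids such as serine, had 1840 and 1722 reads in shCTR, 2093 and 2301 in shMETTL3, and 2023 and 1959 in shMETTL14. All 4 knockdown libraries were above both controls, and SLC1A4 was called at 0.27 in shMETTL3 (SE 0.0655, adjusted p = 0.00724) but not at 0.15 in shMETTL14 (adjusted p = 0.203).

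SLC7A5 and SLC3A2 are the light and heavy chains of the large neutral amino acid transporter LAT1. SLC7A5 had 14059 and 14861 reads in shCTR, 16340 and 18004 in shMETTL3, and 15582 and 15177 in shMETTL14, and SLC3A2 had 10297 and 10239, 11336 and 11589, and 10773 and 9726. The light chain was called at 0.22 in shMETTL3 (SE 0.0587, adjusted p = 0.0151), and the heavy chain, at 0.13 (adjusted p = 0.143), was not, although both shMETTL3 libraries were above both controls for each. The values in shMETTL14 were 0.08 (adjusted p = 0.508) for SLC7A5 and -0.02 (adjusted p = 0.916) for SLC3A2.

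SLC7A11, the cystine importer xCT that is also an NRF2 target, had 4753 and 3845 reads in shCTR, 4286 and 4435 in shMETTL3, and 3893 and 3917 in shMETTL14, and its controls straddled the shMETTL3 libraries. The SLC7A11 values of -0.01 and -0.15 were not called. SLC1A5, the glutamine transporter ASCT2, had 7987 and 8012 reads in shCTR, 8741 and 9334 in shMETTL3, and 9503 and 8550 in shMETTL14, at 0.15 (adjusted p = 0.11) and 0.16 (adjusted p = 0.126).

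Among the secreted factors, GDF15 was the only well counted gene that was called. GDF15 (chr19:18386158-18389176) had 6015 and 6550 reads in shCTR, 13009 and 13347 in shMETTL3, and 7654 and 7636 in shMETTL14. Its levels were 323 ± 26.7, 664 ± 2.07 and 390 ± 0.014 CPM, and no groups overlapped. GDF15 rose by 1.04 in shMETTL3 (SE 0.061, adjusted p = 1.13e-09), by 0.27 in shMETTL14 (SE 0.0608, adjusted p = 0.00962), and differed by 0.77 between the knockdowns (SE 0.0605, adjusted p = 4.95e-08). Leaving out any 1 library left the shMETTL3 value between 0.95 and 1.12.

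FGF21, a hormone secreted under amino acid and mitochondrial stress, was near the limit of detection, with 5 and 2 reads in shCTR, 17 and 15 in shMETTL3, and 4 and 7 in shMETTL14. Both shMETTL3 libraries exceeded the other 4, and the ratio of summed reads per library size between shMETTL3 and shCTR was 4.48 (exact binomial 95% interval 1.94 to 12.02, counting error only), on 32 against 7 reads. FGF21 was kept by the filter on low counts only through its reads in shMETTL3, so its fitted value is not given as a test. Between shMETTL14 and shCTR the ratio was 1.56 (interval 0.551 to 4.74), on 11 against 7 reads. STC2, a secreted glycoprotein induced by stress, had 1542 to 1718 reads in every library, with values of 0.00 (adjusted p = 0.98) and -0.05 (adjusted p = 0.734).

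**Figure D3:**
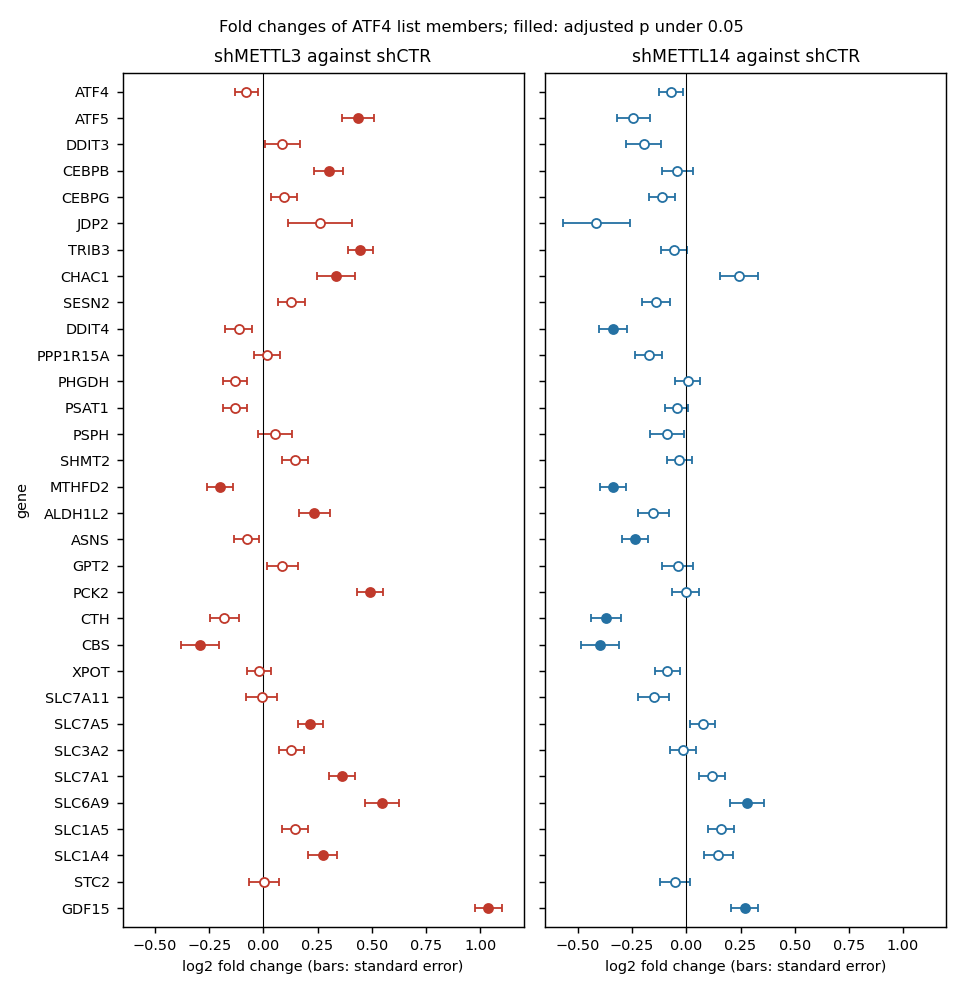
Points are log2 fold changes from the edgeR fit with standard errors as bars, shMETTL3 against shCTR on the left and shMETTL14 against shCTR on the right, and filled points have an adjusted p under 0.05. On the left the filled points are mostly to the right of 0, with GDF15 at 1.04. On the right MTHFD2, ASNS, CTH, CBS and DDIT4 are filled to the left of 0, and SLC6A9 and GDF15 to the right. Both panels use the same shCTR libraries, and FGF21 is left out.

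Calls against shCTR differed in how far they rested on 1 library. FGF21, kept by the filter only through shMETTL3, counts among the calls there but is left out of the lost calls named here. In shMETTL3 the calls of GDF15, PCK2, TRIB3, ATF5, SLC6A9 and SLC7A1 stood under all 13 alternatives, including each library left out, and the others were lost under at least 1. Removing the GC and length trend ended the calls of CEBPB at 0.15 (adjusted p = 0.0657) and SLC7A5 at 0.08 (adjusted p = 0.227). ALDH1L2 was lost without the filter (adjusted p = 0.0621), with only the compared groups in the fit (adjusted p = 0.0584), and with either shMETTL14 library left out (adjusted p = 0.0608 and 0.0532), and CBS without the filter (adjusted p = 0.0525). Leaving out shMETTL3 replicate 2 ended the calls of CEBPB, CHAC1, MTHFD2, ALDH1L2, SLC7A5 and SLC1A4 (adjusted p from 0.0932 to 0.262), and leaving out shMETTL3 replicate 1 ended those of MTHFD2, ALDH1L2 and CBS (0.163 to 0.427). Without shCTR replicate 1, CHAC1, MTHFD2 and SLC7A5 were lost (0.084 to 0.128), and without shCTR replicate 2, ALDH1L2 and CBS (0.0776 to 0.20). CHAC1 was at 0.22 in each of the fits that lost it.

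In shMETTL14 only the MTHFD2 call stood under all 13 alternatives. Without shMETTL14 replicate 2 the calls of DDIT4, ASNS, CTH, SLC6A9 and GDF15 were lost (adjusted p from 0.0694 to 0.161), without shMETTL14 replicate 1 those of ASNS, CBS, SLC6A9 and GDF15 (0.0926 to 0.378), and without shCTR replicate 1 those of ASNS, SLC6A9 and GDF15 (0.0575 to 0.188), with ASNS at -0.15. Between the knockdowns the calls of ALDH1L2, ATF5, GDF15, PCK2 and TRIB3 stood under all 13. The other 9 were lost there without shMETTL14 replicate 2 and without shMETTL3 replicate 2 (adjusted p up to 0.274 and 0.382), 7 of them without shMETTL14 replicate 1 (up to 0.305), and DDIT3, CEBPG and PPP1R15A without shMETTL3 replicate 1 (up to 0.392). In each such fit the group's lone library is assumed to vary as the other libraries do.

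No called value changed sign under another scaling, but the numbers called higher and lower did change. Scaled by library size alone, shMETTL3 had 15 listed genes called higher and 0 lower, with SHMT2, SLC3A2 and SLC1A5 added and MTHFD2 and CBS gone, and with the GC and length trend removed 11 were higher and 5 lower, against 12 and 2 with TMM. The 5 were MTHFD2 and CBS with ATF4, DDIT4 at -0.17 (adjusted p = 0.0426) and PHGDH at -0.16 (adjusted p = 0.0195). Among the 11, CEBPG was added, and CEBPB and SLC7A5 were gone. FGF21 is counted among the genes called higher under each of these scalings, and without it TMM gave 11 higher and 2 lower. Over all genes, library size alone gave 2158 higher and 858 lower in shMETTL3 where TMM gave 1544 and 1368, and 743 and 443 against 607 and 577 in shMETTL14. Between the knockdowns it gave 1399 and 754 against 1177 and 971.

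By sequence, the listed genes are GC-rich. The longest transcript of the 33 tested members had a median GC content of 56.4%, against 48.2% over 16662 tested genes. The pentamer GGACT, the commonest form of the motif at which METTL3 and METTL14 place m6A, occurred a median of 3 times per transcript in both sets, or 0.926 and 0.909 times per kilobase. It was absent from the longest transcripts of DDIT3, CTH and CBS and densest in SLC3A2, at 2.25 per kilobase. These counts describe letters and not methylation.

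Genes around ATF4 in the same response were read from 5 further lists. Of 19 genes for eIF2 kinases, eIF2 and eIF2B subunits and their regulators, 0 rose and 3 fell in shMETTL3 (15.8% called, against 16.5% of all genes), and 0 rose and 2 fell in shMETTL14 (10.5% against 6.69%). Leaving out either shMETTL3 library gave 1 fall in shMETTL3, and leaving out either shMETTL14 library gave 0 in shMETTL14. EIF2B3, a subunit of the exchange factor that reloads eIF2, had 2152 and 2007 reads in shCTR, 1674 and 1632 in shMETTL3, and 1761 and 1708 in shMETTL14, and fell by 0.36 (adjusted p = 7.48e-04) and by 0.27 (adjusted p = 0.0126). EIF2S3, a subunit of eIF2 itself, fell by 0.21 in shMETTL3 (adjusted p = 0.00922) and by 0.20 in shMETTL14 (adjusted p = 0.0317). These EIF2S3 calls were lost under 2 and 7 of the 13 alternatives. EIF2AK1, the haem-regulated kinase HRI, fell by 0.20 in shMETTL3 (adjusted p = 0.0198) and was at 0.00 in shMETTL14 (adjusted p = 0.991).

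Of 17 tested genes among 18 further ATF4 targets, 4 rose and 1 fell in shMETTL3 (29.4% called, against 16.5% of all genes), while 1 rose and 2 fell in shMETTL14 (17.6% against 6.69%). The shMETTL3 counts were 9 and 2 without shCTR replicate 2 and 4 and 0 without shMETTL3 replicate 2, and the shMETTL14 counts 1 and 4 without shCTR replicate 2, 0 and 0 without shMETTL14 replicate 1 and 1 and 1 without shMETTL14 replicate 2. NIBAN1, a stress-induced regulator of translation, had 1483 and 1386 reads in shCTR, 2642 and 2698 in shMETTL3, and 1505 and 1501 in shMETTL14. It rose by 0.87 in shMETTL3 (SE 0.0633, adjusted p = 2.14e-08) and was at 0.05 in shMETTL14 (adjusted p = 0.69). INHBE, an activin subunit, and ADM2, a secreted peptide hormone, rose by 0.42 (adjusted p = 2.72e-04) and 0.49 (adjusted p = 9.17e-04) in shMETTL3, where both libraries of each were above all 4 others, and were at -0.13 (adjusted p = 0.31) and 0.03 (adjusted p = 0.893) in shMETTL14.

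Cytosolic aminoacyl-tRNA synthetases, which load tRNA and include known ATF4 targets, had 0 rises and 4 falls among 20 in shMETTL3 (20% called, against 16.5% of all genes) and 0 rises and 3 falls in shMETTL14 (15.0% against 6.69%). In shMETTL3 the falls numbered 0 without shMETTL3 replicate 2, 1 without shMETTL3 replicate 1, and 7 with the GC and length trend removed, and in shMETTL14 they numbered 1 with either shMETTL14 library left out and 7 without shCTR replicate 2. FARSB fell by 0.23 (adjusted p = 0.0227) and by 0.41 (adjusted p = 6.00e-04), and RARS1 by 0.29 (adjusted p = 0.00701) and by 0.33 (adjusted p = 0.00601). Their median was -0.09 in shMETTL3 and -0.05 in shMETTL14, where the listed ATF4 genes had 0.13 and -0.06, or 0.11 and -0.06 without FGF21.

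The ATF6 and XBP1 branch of the unfolded protein response, which is read as a separate arm, had 1 rise and 1 fall among 16 genes in shMETTL3 (12.5% called, against 16.5% of all genes) and 0 calls in shMETTL14. In shMETTL3 the counts were 0 and 0 without shMETTL3 replicate 2 and 0 and 3 without shMETTL3 replicate 1. EDEM1, which sorts misfolded glycoproteins for degradation, fell by 0.34 (adjusted p = 0.00146), and ERN1, which encodes the sensor IRE1, rose by 0.24 (adjusted p = 0.0269) in shMETTL3, a call lost under 9 of the 13 alternatives. Of 9 tested NRF2 targets, which share SLC7A11 with ATF4, 0 rose and 4 fell in shMETTL3, and 1 rose and 2 fell in shMETTL14 (44.4% and 33.3% called, against 16.5% and 6.69% of all genes). Without shMETTL3 replicate 2 there were 0 NRF2 target calls in shMETTL3, and with either shMETTL14 library left out 0 in shMETTL14. The quinone reductase NQO1 fell by 0.23 (adjusted p = 0.0192) and by 0.32 (adjusted p = 0.0052), thioredoxin reductase TXNRD1 by 0.24 (adjusted p = 0.01) and by 0.23 (adjusted p = 0.0246), and the glutathione synthesis enzyme GCLC by 0.43 in shMETTL3 (adjusted p = 0.00813), with -0.17 in shMETTL14 (adjusted p = 0.36). Scaled by library size alone, shMETTL3 had 1 rise and 2 falls among the eIF2 genes, 6 and 1 among the further ATF4 targets, 0 and 2 among the synthetases, 2 and 1 in the ATF6 and XBP1 branch and 1 and 2 among the NRF2 targets.

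**Figure D4:**
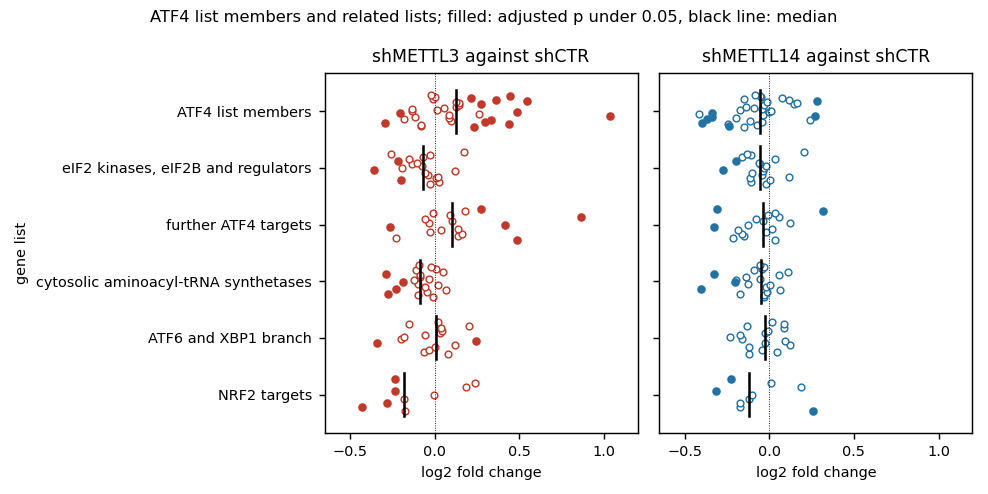
Each point is the log2 fold change of 1 gene against shCTR, in shMETTL3 on the left and shMETTL14 on the right, filled where the adjusted p is under 0.05, and the black line is the median of the list. The median of the listed ATF4 genes lies at 0.13 on the left and -0.06 on the right, and that of the NRF2 targets at -0.18 and -0.12. FGF21 counts toward the median but its point is left out, and without it the median of the listed ATF4 genes is 0.11 on the left and -0.06 on the right.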

How the data were processed

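RNA-seq of K562 lines (2 libraries each of shCTR, shMETTL3 and shMETTL14) was analysed from 1 table. The authors deposited whole-number read counts per gene, not normalized. They enriched mRNA with oligo(dT) beads and sequenced on a HiSeq instrument. The submitters' processing notes name HTSeq 0.6.1 and the build hg38, and the aligner and annotation release are not given in the sources used here. The table had 60675 Ensembl genes and 986 identifiers without a name, which held 0.635% to 0.703% of reads and stayed in the totals. Gene symbols were matched through a table of names (41209 identifiers) and GENCODE release 29 (15787 more), which also gave gene positions and transcript lengths. Promoter sequences are from RefSeq, build GRCh38.p14.

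Groups and replicate numbers were taken from the labels. In R 4.3.3, edgeR 4.0.16 filtered genes (filterByExpr, minimum count 10, leaving 17686), computed TMM factors and fitted 1 quasi-likelihood model to all 6 libraries, with p values adjusted by the Benjamini-Hochberg method and called under 0.05. Library totals ran from 19292574 to 20115304 reads. No molecular identifiers are described, PCR copies therefore count as reads, and the counting interval covers counting error only. The fit was tested on simulated data first.

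The members and gene lists were chosen with earlier results of these data known. Reads were to be given for ATF4 and every member called in at least 1 comparison with at least 10 counts in each library of 1 group, with the other members described by role, and up to 3 called genes per further list by smallest adjusted p. One gene that this rule names is not reported here. FGF21, which meets this rule and the filter only through shMETTL3, is counted among the calls but shown with its counting interval and no test. Some uncalled members are given library by library as well. Alternatives were DESeq2 1.42.0, its size factors in edgeR, library size alone, no filter on low counts, a fit of only the groups compared, the replicate number entered as a block, removal of a GC and length trend (mgcv 1.9.3, data for 94.2% of tested genes), and each library left out.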

Additional observations from a re-analysis of the deposited data

How the results depend on the processing

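Of the 35 calls of listed genes in the 3 comparisons, 226 of 244 repeats under the settings other than leaving out a library were again past the threshold, 18 were not and 0 reversed, and 151 of 210 were with 1 library left out, 59 not and 0 reversed. The 35 include FGF21 in shMETTL3, which the filter kept only through that group, so its repeats are no support for its call. Over all genes, DESeq2 called 1881 genes in shMETTL3 against shCTR, 763 in shMETTL14 against shCTR and 1327 between the knockdowns, in place of 2912, 1184 and 2148, and without the filter on low counts 766 were called in shMETTL14. Leaving out each library in turn gave 1102 to 3569, 341 to 1913 and 942 to 2953 genes. For the listed genes, in place of 14, 7 and 14 called, it gave 7 to 14, 2 to 10 and 5 to 19, the lowest counts coming without shMETTL3 replicate 2 (7), without shMETTL14 replicate 2 (2) and without either of these (5), and the other settings gave 12 to 16, 5 to 10 and 10 to 20. FGF21 is in these counts of listed genes wherever it passed. The same replicate numbers did not deviate together between groups (r = 0.0614, 0.00511 and -0.02 over 17686 genes), so they were not treated as pairs. With the replicate number as a block, 3264, 1459 and 2478 genes and 14, 8 and 16 listed genes were called. Within groups, counts of the 2 libraries differed beyond sampling noise, with mean chi-square values, averaged over genes, of 5.51 (shCTR), 3.10 (shMETTL3) and 2.59 (shMETTL14). With 2 libraries a group, no library could be judged to stand apart from its group. Members under about 10 reads, NUPR1 and VLDLR, could not be tested at this depth. The cause of the changes between settings was not tested.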
